A study of Mus musculus with 10 samples.

Results

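The ADAM and ADAMTS proteases of the mouse abdominal aorta were compared between the infrarenal and the suprarenal segment, the parts of the vessel below and above the renal arteries. The group took in each gene whose single annotated symbol was Adam, Adamts or Adamtsl followed by a number, which gave 40 of 18069 named genes on the array: 22 ADAM genes, 14 ADAMTS genes and 4 ADAMTS-like genes. The brightest probe of a gene stood for it. Adam12 could not be described, because its only probe held no value on any array, so that 39 members were measured. Symbols that end in a letter (Adam1a, Adam1b, Adam6a, Adam26a) and Adamdec1 fell outside the rule.

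All RNA came from male ApoE-/- mice 14 weeks of age, which lack apolipoprotein E in every cell and develop atherosclerosis, and no wild-type or drug-treated animals were among the groups. Animals were pooled in pairs, and each of the 5 resulting pools, numbered 1, 6, 8, 11 and 12, gave 1 infrarenal and 1 suprarenal array, or 10 arrays in all. The 2 mice of a pool cannot be told apart, and the spread reported is that between pools. Total RNA of whole segments was amplified, labelled with biotin and hybridised to arrays of 36227 probes.

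ADAM proteins are membrane-anchored metalloproteases that cut the outer part of other membrane proteins loose, a process called shedding, and many members have lost the protease site and act as adhesion proteins. ADAMTS proteins are secreted, carry thrombospondin repeats and cut the matrix, with versican and aggrecan, procollagens and cartilage oligomeric matrix protein among their substrates. ADAMTS-like proteins share the repeats without a protease domain and bind fibrillin microfibrils. In the artery wall, smooth muscle cells, endothelium, fibroblasts and macrophages are all known to make members of these families.

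Levels are log2 of the normalized intensities, whose median lay between 1.001 and 1.003 on every array on the linear scale. A probe's brightness depends on its own sequence, so a gap in level between genes is not read as a gap in RNA. The limit of the dimmest 30% and the choice of the brightest members rank probes of different genes, and both share this weakness. Of the smooth muscle markers 6 of 6 lay above the dimmest 30% of probes, as did 78.3% of all genes. Their mean score was between 7.04 and 7.26 on the 10 arrays. The endothelial, fibroblast, brown adipocyte and skeletal muscle markers were 6 of 6 as well, so this count does not single out the aorta. The Apoe probe lay among the dimmest 30%, at -4.14 ± 0.92 infrarenally and -3.58 ± 0.74 suprarenally (SD, n = 5). Mean scores of 4 macrophage markers spanned 4.08 to 4.30 on infrarenal and 4.34 to 4.89 on suprarenal arrays, 6 brown adipocyte markers 3.53 to 5.83 and 3.36 to 6.01, and 6 skeletal muscle markers 2.48 to 5.82 and 1.39 to 5.95. The part of the macrophage markers in the regional values below was not tested. Pool 12 stood apart: across 24991 probes above the dimmest 30%, the Pearson r between its regional differences and the average of the remaining pools was -0.308, against -0.0971 for pool 1 and 0.128 to 0.339 for pools 6, 8 and 11. The arrays of pool 12 are taken as labelled, and the difference without them is given below for each of the 12 bright members that moved by over 0.1 log2 units when they were left out.

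Of the 39 measured members, 29 (74.4%) had a mean level above the dimmest 30% of probes, against 78.3% of all 17991 named genes fitted. The same 29 were above the corresponding limit in each region, and each of them was above the limit of every one of the 10 arrays. By family these were 14 of 21 ADAM genes (66.7%), 11 of 14 ADAMTS genes (78.6%) and 4 of 4 ADAMTS-like genes. A stricter limit at the median probe left 22 members, against 62.6% of all genes. A gene below the limit is called dim here, which says that its probe was not separated from the weakest signals and does not say that its RNA was missing.

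Counts by role were small and stand beside the 78.3% of all genes. Among ADAMs that shed proteins in many tissues 7 of 8 measured were above the limit, Adam28 being the exception, and all of the 3 brain ADAMs without a working protease site were above it. Of the ADAMTS members known to cut proteoglycans 6 of 7 were above it, with Adamts4 the dim one. The single measured procollagen processor, Adamts14, the single measured enzyme for cartilage oligomeric matrix protein, Adamts7, and 3 of 5 other ADAMTS genes were above it as well. ADAMs known from testis and epididymis gave 4 of 10.

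The 10 dim members were Adam2, Adam3, Adam21, Adam24, Adam25, Adam28, Adam29, Adamts4, Adamts17 and Adamts19. On 8 of them no array passed its own limit, while Adam3 passed on 2 arrays, 1 from each region, and Adam2 on 1 infrarenal array. The limit lay at -1.59, and the members nearest to it were Adamts18 (-0.90) and Adam22 (-0.90) above, and Adam3 (-1.84) and Adam28 (-2.39) below. Values at the floor of -5.17 occurred in 5 members. Regional differences of the dim members ran from -0.57 to 0.90 with standard errors of 0.22 to 0.70, so that these probes could show large differences only.

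**Figure D1:**
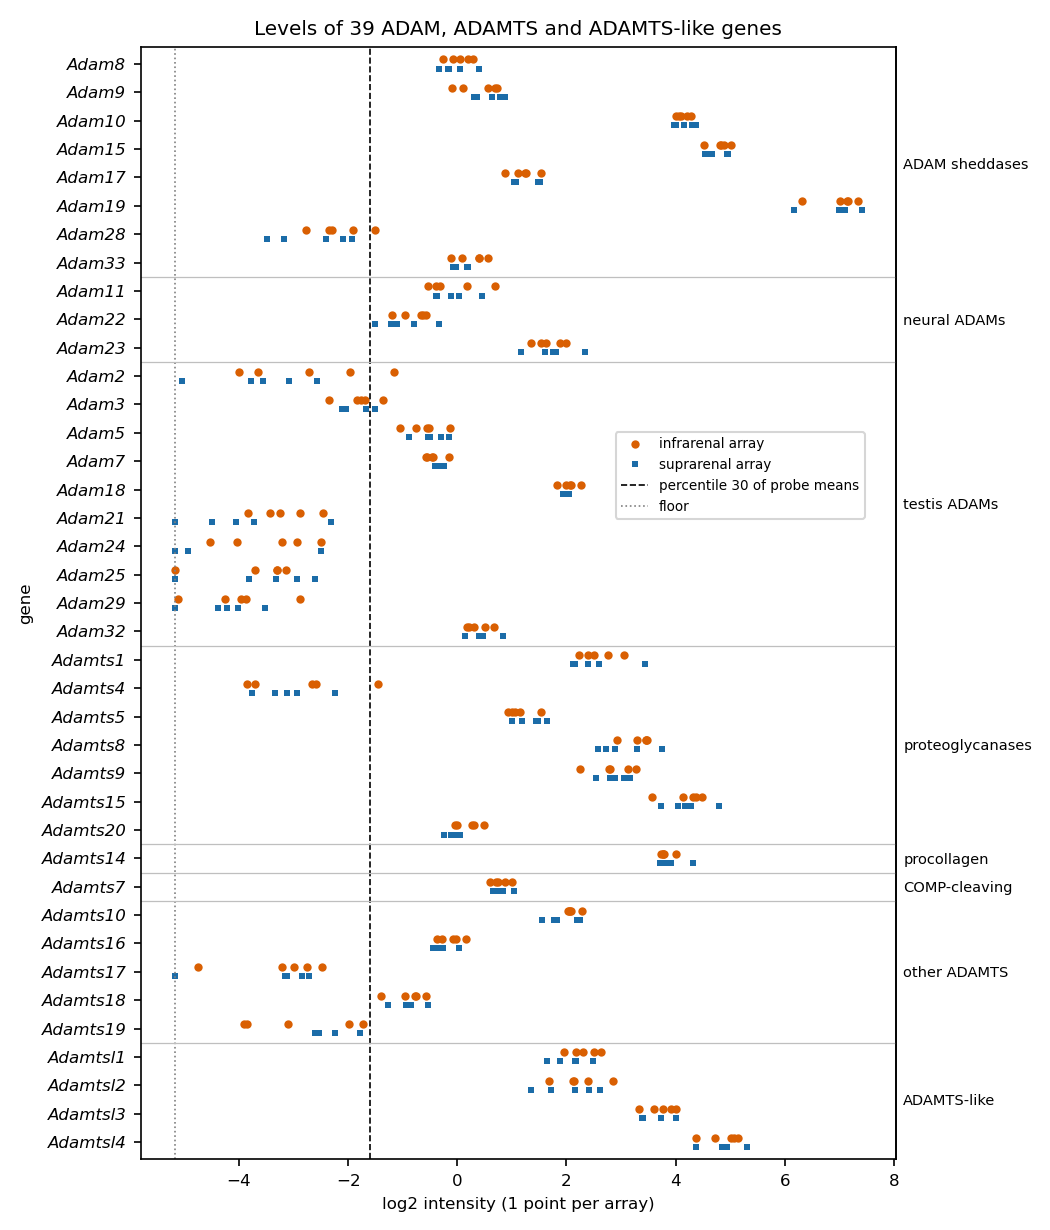
Log2 intensity (horizontal axis) of each of the 39 measured genes on the 10 arrays, with infrarenal arrays as circles and suprarenal arrays as squares, grouped by role; the dashed line is the limit of the dimmest 30% of probe means and the dotted line the floor. Points of both regions overlap in every gene, and the 10 dim genes, 6 of them testis ADAMs, lie around or left of the dashed line.

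No member passed the test between regions. With limma, the pool as a block and Benjamini-Hochberg adjustment over 36061 probes, 0 of 39 members had an adjusted p under 0.05, and 0.0% of all probes did; the lowest adjusted p among members was 0.639. At an unadjusted p under 0.05 there was 1 member, Adamts20, which is 1 of 39 against 7.56% of all probes, or 1 of the 29 bright members against 8.55% of genes above the limit. Infrarenal and suprarenal arrays overlapped in all 39 members, where 1.26% of all genes had regions that did not overlap. Of the bright members, 1 had the same sign in all 5 pools, against 9.61% of genes above the limit.

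Differences are given as infrarenal minus suprarenal, in log2 units ± the standard error (SE) of the fit over 5 pools. Among the 29 bright members 12 were negative and 17 positive, or 41.4% negative, whereas 66.5% of genes above the limit were negative. Their median difference was 0.011, beside -0.065 over genes above the limit. The lean was not even across pools, with positive counts of 13, 21, 17, 16 and 15 of 29 in pools 1, 6, 8, 11 and 12. Median differences of the 29 were -0.024, 0.15, 0.075, 0.038 and 0.031 in these pools. Genes above the limit had medians of 0.016, -0.069, -0.095, -0.062 and -0.081. Leaving out pool 6 turned the majority, with 15 of 29 negative, while the median of all probes went from -0.023 to -0.033. Array weights, RNA input, the brown adipocyte score or the skeletal muscle score in the fit gave 14 negative. The share of negative genes under these alternatives is not given, so these counts have no background beside them. Single differences ran from -0.22 (Adamts5) to 0.29 (Adamts20), with SE from 0.075 to 0.25. The 95% interval of the brightest probe stayed within 1 log2 unit of 0 for all 29 bright members and within 0.5 for 19. Other probes of a gene can differ more, and the second Adamts10 probe gave 0.62 ± 0.21. The intervals thus bound the difference that the brightest probes leave room for, not that of the gene. In segments of whole tissue, fewer cells of a type and less RNA per cell cannot be told apart.

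In 19 of 29 bright members (65.5%) the difference of pool 12 had the opposite sign to the mean of the other 4 pools. The share was 51.1% of genes above the limit. This count is given for pool 12 alone, so it does not show that pool 12 stood apart from the other pools in these genes. Without pool 12 the adjusted count stayed at 0 of 39, and 11 of the 29 were negative, where the median of all probes was -0.016. Members with an unadjusted p under 0.05 were then Adamts1, Adamts8 and Adamtsl1, whose values follow below, and the lowest adjusted p was 0.391.

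**Figure D2:**
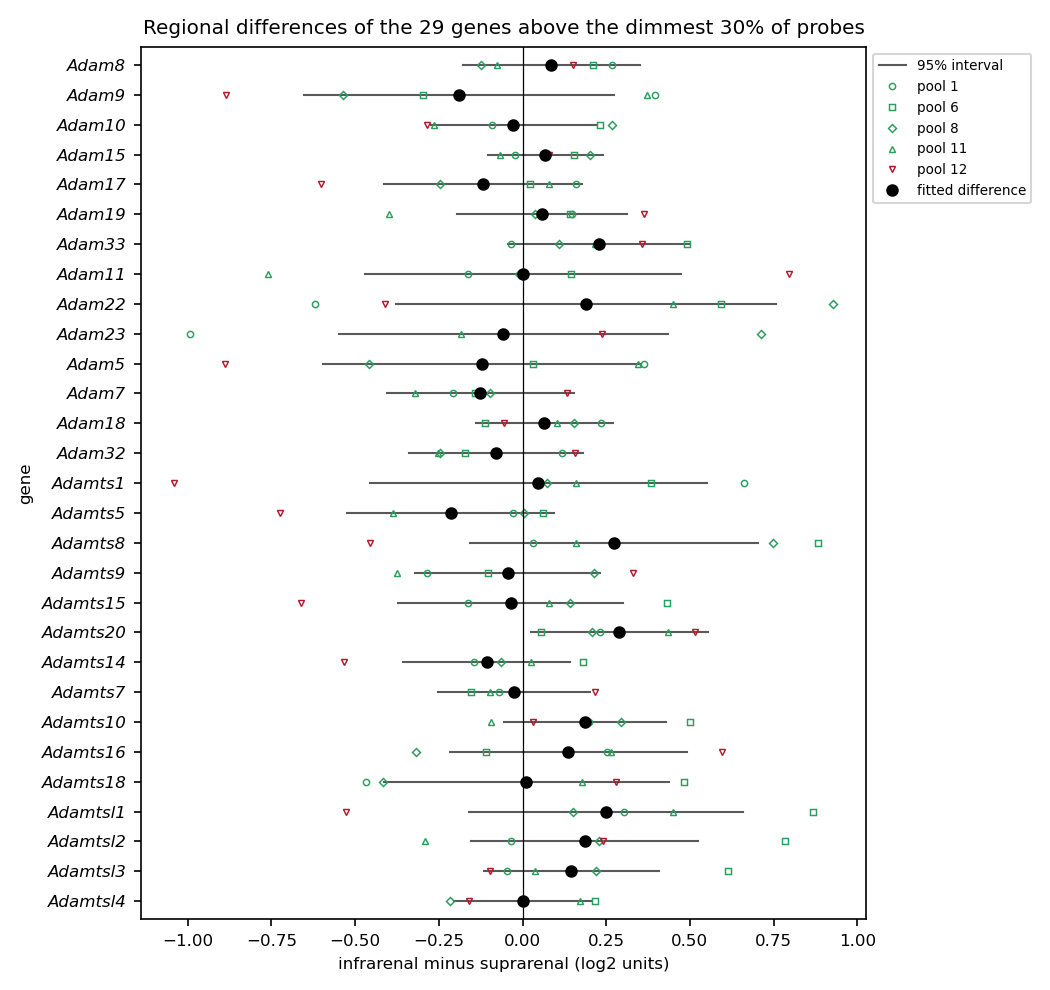
Infrarenal minus suprarenal difference in log2 units for the 29 bright genes, with open symbols for the 5 pools, filled circles for the fitted difference and lines for its 95% interval. The interval excludes 0 in Adamts20 alone. Pool 12 (red) is the most negative of the 5 pools in Adam5, Adam9, Adam10, Adam17, Adamts1, Adamts5, Adamts8, Adamts14, Adamts15, Adamtsl1 and Adamtsl3.

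Levels were also compared between pools, after the data had been seen, and no member passed the adjusted test given below. In 6 of the 29 bright members (20.7%) both arrays of pool 1 were the 2 lowest of the 10, a pattern seen in 7.68% of genes above the limit. They were Adam19, Adamts15, Adamtsl4, Adamts9, Adam15 and Adamts7. Adam19 read 6.32 and 6.17 in pool 1 and between 6.99 and 7.41 on the other 8 arrays, a gap between means of -0.90. For Adamts15 the gap was -0.68, for Adamtsl4 -0.61, for Adamts9 -0.58, for Adam15 -0.31 and for Adamts7 -0.21. The same 6 genes showed it after quantile normalization, joined by Adam33, where 8.14% of genes above the limit did. Leaving out pool 12 cannot undo the pattern in a gene that has it, so that setting is no check. No member joined there, and the share of genes was 8.91%.

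A limma F test for any difference among pools, added after the data had been seen, gave an unadjusted p under 0.05 in 5 of the 29 bright members, against 7.94% of genes above the limit. These were Adam19 (adjusted p = 0.446), Adamtsl4 (adjusted p = 0.510), Adamtsl2 (adjusted p = 0.686), Adamts9 and Adam15 (adjusted p = 0.833 for both). None passed after adjustment, where 0.0139% of all probes did. The marker scores of pool 1 were 7.12 and 7.04 for smooth muscle, against 7.05 to 7.26 on the other arrays, and 5.83 and 5.77 for brown adipocytes, against 3.36 to 6.01. Fibroblast scores were 5.93 and 5.68, against 5.70 to 6.06, and macrophage scores 4.23 and 4.34, against 4.08 to 4.89. Endothelial scores were 3.44 and 3.41, against 2.95 to 3.58, adipocyte scores 7.40 and 7.39, against 6.56 to 7.61, and skeletal muscle scores 2.48 and 4.89, against 1.39 to 5.95. All measured markers of these 7 lists were above the dimmest 30%. Sympathetic neuron and adrenal medulla scores were 0.49 and 2.15, against 0.34 to 1.57, Schwann cell scores 1.31 and 2.71, against 0.82 to 2.29, and mesothelial scores -2.62 and -1.69, against -2.94 to -1.17. On the suprarenal array of pool 1 the sympathetic and Schwann cell scores were thus above all other arrays and the smooth muscle and fibroblast scores below them, and their part in the result was not tested.

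Other pools had fewer such members, but the pattern was also rarer there among genes above the limit. Both arrays of pool 6 were the highest 2 in Adam17 and Adam32 (6.90% of bright members, against 1.77% of genes above the limit). Those of pool 8 were the highest 2 in Adam8 (3.45% against 1.60%), and those of pool 12 in Adamts10, Adamtsl2 and Adamtsl4 (10.3% against 1.80%). Both arrays of pool 11 were the lowest 2 in Adamts14 (3.45% against 0.423%). The remaining patterns, such as pool 6 lowest (5.11% of genes) and pool 1 highest (4.36%), had no bright member. Over the 10 arrays the SD of bright members was largest in Adamtsl2 (0.46), Adamts1 (0.42) and Adam11 (0.41), and smallest in Adam18 (0.12).

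**Figure D3:**
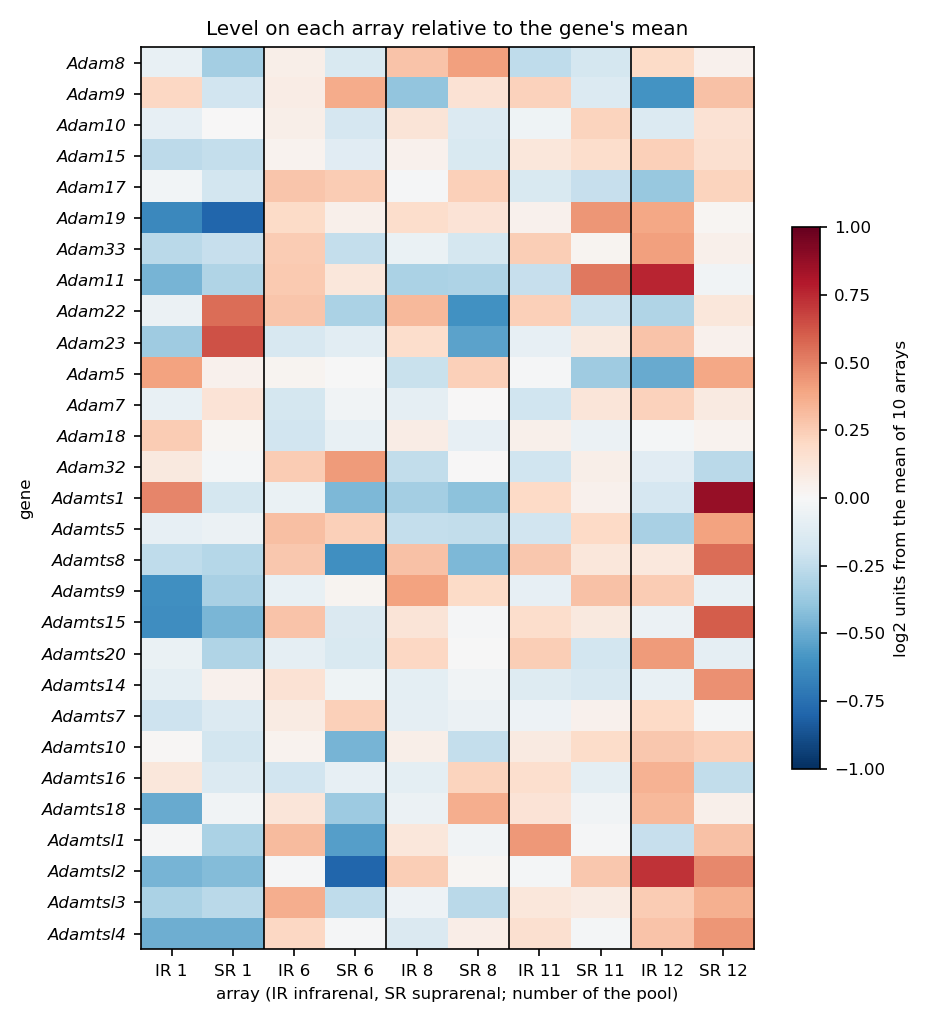
Level of each of the 29 bright genes on each array as log2 units from the gene's mean over 10 arrays (colour), with infrarenal (IR) and suprarenal (SR) arrays of a pool side by side. Both columns of pool 1 are blue for Adam19, Adam15, Adamts7, Adamts9, Adamts15 and Adamtsl4, and the suprarenal array of pool 12 is the darkest red in Adamts1.

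Promoter windows are shown for the members whose pool 1 arrays were the lowest, since those are the genes that share this pattern. The RefSeq windows (GRCm38.p6, 250 bases before to 50 after the start, given 5′ to 3′ on the gene's strand) held 4 of the 6. Capitals mark matches, on either strand, to GGGCGG (the GC box bound by Sp1), TGANTCA (AP-1) and GGAATG (the TEAD element); TATAAA and the CArG box bound by serum response factor were searched as well, on both strands, and overlapping matches were each counted. Adam19 has 3 annotated starts, of which the one with matches is shown; the windows of its other starts held none of the motifs. Positions are chr11:46055734-46056033 (plus strand) for Adam19, chr3:89349979-89350278 (minus) for Adam15, chr6:92943485-92943784 (minus) for Adamts9 and chr3:95687868-95688167 (minus) for Adamtsl4.
Adam19: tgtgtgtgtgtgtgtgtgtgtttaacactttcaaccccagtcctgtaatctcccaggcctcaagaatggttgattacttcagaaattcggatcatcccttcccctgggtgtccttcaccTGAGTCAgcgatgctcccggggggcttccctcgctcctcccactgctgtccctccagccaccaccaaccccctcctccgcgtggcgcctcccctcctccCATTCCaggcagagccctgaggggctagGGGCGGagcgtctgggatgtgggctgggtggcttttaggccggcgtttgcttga
Adam15: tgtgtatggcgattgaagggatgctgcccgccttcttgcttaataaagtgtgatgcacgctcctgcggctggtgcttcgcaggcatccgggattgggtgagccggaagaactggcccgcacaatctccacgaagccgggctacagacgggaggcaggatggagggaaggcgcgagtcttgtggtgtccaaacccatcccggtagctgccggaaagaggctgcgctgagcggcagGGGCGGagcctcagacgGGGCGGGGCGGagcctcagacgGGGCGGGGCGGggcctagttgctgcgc
Adamts9: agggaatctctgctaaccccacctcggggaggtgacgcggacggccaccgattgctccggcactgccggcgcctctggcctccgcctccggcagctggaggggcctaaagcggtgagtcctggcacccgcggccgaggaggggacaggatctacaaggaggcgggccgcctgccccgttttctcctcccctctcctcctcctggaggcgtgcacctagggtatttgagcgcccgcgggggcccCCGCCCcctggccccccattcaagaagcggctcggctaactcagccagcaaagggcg
Adamtsl4: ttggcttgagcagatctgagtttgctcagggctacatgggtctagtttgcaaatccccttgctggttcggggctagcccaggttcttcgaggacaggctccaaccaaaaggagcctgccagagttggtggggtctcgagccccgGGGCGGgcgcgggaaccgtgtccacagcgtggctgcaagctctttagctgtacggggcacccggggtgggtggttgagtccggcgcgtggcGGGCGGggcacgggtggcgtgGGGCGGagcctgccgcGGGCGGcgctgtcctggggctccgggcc

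All of the 4 windows shown hold GGGCGG, with 5 matches in Adam15, 4 in Adamtsl4 and 1 each in Adam19 and Adamts9. Of all 32851 windows of this length 35.7% hold it. The Adam19 window was picked from 3 starts because it held matches, and the windows of its other starts hold none. Its matches therefore cannot be set against the shares over all windows. GC content was 65.3% in Adam15, 68.0% in Adamtsl4, 70.0% in Adamts9 and 60.3% in the Adam19 window shown, against a median of 52.7%, while the other Adam19 windows had 49.3% and 57.0%. Adam19 also holds 1 TGANTCA, which is in 7.81% of windows, and 1 GGAATG, which is in 14.7%. None of the 4 holds TATAAA (13.6% of windows) or a CArG box (1.63%). These are matches of letters in a window and not measured binding sites.

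The sheddases of many tissues are taken first. Adam17 codes for the enzyme that releases tumour necrosis factor and several epidermal growth factor receptor ligands. Infrarenal Adam17 read 1.24, 1.54, 1.25, 1.11 and 0.88 in pools 1, 6, 8, 11 and 12, and suprarenal Adam17 1.08, 1.52, 1.50, 1.03 and 1.48. Values of both regions overlapped, and the lowest array was infrarenal pool 12. The region means were 1.20 ± 0.24 and 1.32 ± 0.24 (SD, n = 5), with a difference of -0.12 ± 0.13 (95% interval -0.41 to 0.18, limma adjusted p = 0.786). Without pool 12 the difference was 0.0037.

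Adam19 codes for a sheddase of neuregulins that is known from the developing heart. Adam19 levels, in the same order of pools, were 6.32, 7.16, 7.14, 7.01 and 7.35 in infrarenal and 6.17, 7.02, 7.11, 7.41 and 6.99 in suprarenal segments. Apart from the low pool 1, the arrays lay close together, and the difference was 0.058 ± 0.11. Adam15 codes for an ADAM with an integrin-binding disintegrin domain that endothelium and smooth muscle make. Suprarenal Adam15 read 4.54, 4.67, 4.62, 4.96 and 4.94 in pools 1, 6, 8, 11 and 12, beside infrarenal values of 4.52, 4.82, 4.83, 4.89 and 5.02. Its difference of 0.068 ± 0.075 had the smallest SE among bright members, and it became 0.19 after quantile normalization (unadjusted p = 0.0463 by limma, adjusted p = 0.794).

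Adam10 codes for the main sheddase of Notch and of cadherins. Infrarenal Adam10 read 4.06, 4.21, 4.28, 4.10 and 4.01 in pools 1, 6, 8, 11 and 12, and suprarenal Adam10 4.15, 3.98, 4.01, 4.37 and 4.29. The arrays differed little, with a difference of -0.028 ± 0.11. A second Adam10 probe of the same brightness (4.14) gave -0.19 ± 0.091, and the remaining, dimmer one (0.73) gave -0.28 ± 0.20. All 3 were thus negative with unequal size, but the sign of the brightest probe was not firm. Its difference was 0.081 after quantile normalization, 0.031 without pool 11 and 0.036 without pool 12.

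Adam33, an ADAM known from airway smooth muscle, had the second smallest p among bright members with a positive difference. Adam33 levels, in the same order of pools, were -0.12, 0.40, 0.082, 0.39 and 0.56 in infrarenal and -0.083, -0.087, -0.028, 0.17 and 0.20 in suprarenal segments. The infrarenal array was above its partner in 4 of 5 pools, though the ranges overlapped. The difference was 0.23 ± 0.12 (limma adjusted p = 0.649), and its other probe gave -0.19 ± 0.15. Adam8, which leukocytes make, had a mean level of -0.0025 and a difference of 0.086 ± 0.11. Adam9, which cuts several growth factor precursors, had a mean level of 0.49 and a difference of -0.19 ± 0.20, which was -0.016 without pool 12. None of the 7 bright sheddases passed the test.

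The ADAMs without a working protease site bind LGI proteins at synapses. Suprarenal Adam23 read 2.34, 1.60, 1.17, 1.81 and 1.75 in pools 1, 6, 8, 11 and 12, beside infrarenal values of 1.35, 1.54, 1.88, 1.62 and 1.99. The highest and the lowest of the 10 Adam23 values were both suprarenal, and the difference was -0.057 ± 0.21. Infrarenal Adam11 read -0.54, 0.18, -0.40, -0.31 and 0.68 in pools 1, 6, 8, 11 and 12, and suprarenal Adam11 -0.37, 0.039, -0.39, 0.45 and -0.11. Pools went both ways in Adam11, from -0.76 in pool 11 to 0.80 in pool 12, and averaged to 0.0011 ± 0.20, or -0.20 without pool 12. Adam22, near the limit of the dim probes, gave 0.19 ± 0.25, or 0.34 without pool 12.

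Among the ADAMs known from sperm and epididymis, 4 were above the limit in this male tissue. Adam18 levels, in the same order of pools, were 2.27, 1.83, 2.09, 2.07 and 1.99 in infrarenal and 2.04, 1.94, 1.93, 1.96 and 2.05 in suprarenal segments. Adam18 varied least of the bright members, and its difference was 0.065 ± 0.088. Suprarenal Adam32 read 0.40, 0.84, 0.42, 0.47 and 0.15 in pools 1, 6, 8, 11 and 12, beside infrarenal values of 0.51, 0.67, 0.17, 0.22 and 0.30. Both pool 6 arrays were the highest for Adam32, and the difference was -0.079 ± 0.11.

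Adam7, an epididymal ADAM without a protease site, had the second smallest p among bright members with a negative difference. Infrarenal Adam7 read -0.44, -0.55, -0.47, -0.57 and -0.14 in pools 1, 6, 8, 11 and 12, and suprarenal Adam7 -0.24, -0.41, -0.37, -0.25 and -0.28. The infrarenal array was below its partner in 4 of 5 pools, with a difference of -0.13 ± 0.12 (limma adjusted p = 0.758). Adam5 had a mean level of -0.54 and a difference of -0.12 ± 0.21, which was 0.070 without pool 12. Whether these probes also take up other transcripts was not tested.

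Adamts1 codes for a protease that cuts versican and aggrecan and that vascular smooth muscle and endothelium make. Adamts1 levels, in the same order of pools, were 3.05, 2.50, 2.22, 2.76 and 2.39 in infrarenal and 2.39, 2.12, 2.15, 2.61 and 3.43 in suprarenal segments. Suprarenal pool 12 was the highest array and stood above all infrarenal arrays, whereas in the other 4 pools the infrarenal array was above its partner. The differences by pool were 0.66, 0.38, 0.075, 0.16 and -1.04. The fitted difference was 0.048 ± 0.22 (95% interval -0.46 to 0.55, limma adjusted p = 0.958), with region means of 2.59 ± 0.33 and 2.54 ± 0.54 (SD, n = 5). Without pool 12 it was 0.32, with an unadjusted p of 0.0293 by limma and an adjusted p of 0.423. It was -0.11 without pool 1, -0.036 without pool 6 and -0.14 with the brown adipocyte score in the fit, so that even its sign depends on single pools.

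The other proteoglycan-cleaving members did not share one direction. Suprarenal Adamts15 read 3.73, 4.05, 4.18, 4.29 and 4.79 in pools 1, 6, 8, 11 and 12, beside infrarenal values of 3.57, 4.48, 4.32, 4.37 and 4.13. In Adamts15 the pool 1 arrays were low in both regions, suprarenal pool 12 was the highest, and the difference was -0.035 ± 0.15, or 0.12 without pool 12. Adamts8 was first described as an inhibitor of vessel growth. Infrarenal Adamts8 read 2.93, 3.45, 3.48, 3.46 and 3.29 in pools 1, 6, 8, 11 and 12, and suprarenal Adamts8 2.90, 2.57, 2.73, 3.30 and 3.74. The 2 highest differences were in pools 6 and 8 and pool 12 was negative, which averaged to 0.27 ± 0.19 (95% interval -0.16 to 0.70, limma adjusted p = 0.683). Without pool 12 the Adamts8 difference was 0.46 (adjusted p = 0.408), without pool 6 it was 0.12, without pool 8 it was 0.15, and with each array's brown adipocyte score in the fit it was 0.087 (adjusted p = 0.916). Its second probe gave -0.25 ± 0.11.

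Adamts9 codes for a protease of the cell surface that cuts versican. Adamts9 levels, in the same order of pools, were 2.26, 2.79, 3.27, 2.78 and 3.12 in infrarenal and 2.54, 2.89, 3.06, 3.16 and 2.79 in suprarenal segments. Pool 1 was the lowest in both regions, and the difference was -0.045 ± 0.12. Adamts5, the main aggrecanase of mouse cartilage, had the smallest p among bright members with a negative difference. Suprarenal Adamts5 read 1.19, 1.48, 0.999, 1.44 and 1.65 in pools 1, 6, 8, 11 and 12, beside infrarenal values of 1.16, 1.54, 1.003, 1.05 and 0.92. Pools 1, 6 and 8 showed little difference, whereas the suprarenal array was above its partner in pools 11 and 12, and the difference was -0.22 ± 0.13 (limma adjusted p = 0.668). Without pool 12 it was -0.087.

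Adamts20, whose loss causes the belted coat of mice, was the member with the smallest p. Infrarenal Adamts20 read -0.0049, -0.033, 0.27, 0.31 and 0.49 in pools 1, 6, 8, 11 and 12, and suprarenal Adamts20 -0.24, -0.089, 0.058, -0.12 and -0.029. The infrarenal array was above its partner in 5 of 5 pools, yet the ranges of the regions overlapped. The difference was 0.29 ± 0.11 (95% interval 0.024 to 0.55, unadjusted p = 0.0362 by limma, adjusted p = 0.639). Its unadjusted p lay between 0.026 and 0.664 over the alternatives, and leaving out pool 1, 8, 11 or 12 took it to 0.0617, 0.0584, 0.106 or 0.112. The other Adamts20 probe, of nearly the same brightness (-0.14 against 0.061), gave -0.18 ± 0.13, and the mean of both probes 0.053.

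Adamts14 codes for a procollagen N-proteinase. Adamts14 levels, in the same order of pools, were 3.76, 4.002, 3.76, 3.73 and 3.78 in infrarenal and 3.91, 3.82, 3.82, 3.71 and 4.32 in suprarenal segments. Suprarenal pool 12 read higher than the other 9 arrays, and the difference was -0.11 ± 0.11; without pool 12 it was -0.00048. Adamts7, known for cutting cartilage oligomeric matrix protein and for its tie to coronary artery disease in human genetics, is the other single-role member. Suprarenal Adamts7 read 0.66, 1.03, 0.74, 0.84 and 0.78 in pools 1, 6, 8, 11 and 12, beside infrarenal values of 0.59, 0.88, 0.71, 0.74 and 0.995. The ranges of the regions overlapped over most of their length, with a difference of -0.027 ± 0.098.

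Of the other ADAMTS genes, Adamts10 codes for a protein tied to fibrillin microfibrils, whose loss in humans gives short stature and lens dislocation. Infrarenal Adamts10 read 2.02, 2.04, 2.06, 2.09 and 2.28 in pools 1, 6, 8, 11 and 12, and suprarenal Adamts10 1.82, 1.54, 1.77, 2.19 and 2.25. The infrarenal array was above its partner in 4 of 5 pools, most in pool 6, and the difference was 0.19 ± 0.11 (limma adjusted p = 0.656). A second, dimmer probe went the same way at 0.62 ± 0.21 (unadjusted p = 0.0204 by limma, adjusted p = 0.639). Adamts16 levels, in the same order of pools, were -0.078, -0.38, -0.29, -0.023 and 0.16 in infrarenal and -0.33, -0.27, 0.032, -0.29 and -0.44 in suprarenal segments. Adamts16 differed by 0.14 ± 0.15, or by 0.022 without pool 12, and Adamts18, near the limit of the dim probes, by 0.011 ± 0.18.

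All of the 4 ADAMTS-like genes had differences above 0, as did 33.5% of genes above the limit, and none passed the test. Without pool 6 the differences were 0.094 in Adamtsl1, 0.036 in Adamtsl2, 0.029 in Adamtsl3 and -0.052 in Adamtsl4. Adamtsl4 was below 0 also without pool 11 and with RNA input or any of the 3 tissue scores in the fit. Suprarenal Adamtsl4 read 4.38, 4.85, 4.93, 4.85 and 5.31 in pools 1, 6, 8, 11 and 12, beside infrarenal values of 4.38, 5.07, 4.72, 5.02 and 5.15. Adamtsl4, whose protein binds fibrillin and whose loss in humans dislocates the lens, was low in pool 1 and differed by 0.0015 ± 0.089 between regions. Infrarenal Adamtsl3 read 3.34, 4.01, 3.60, 3.77 and 3.91 in pools 1, 6, 8, 11 and 12, and suprarenal Adamtsl3 3.38, 3.40, 3.38, 3.73 and 4.005. For Adamtsl3 the widest gap was in pool 6, and the difference was 0.15 ± 0.11.

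Adamtsl2, whose protein binds the latent transforming growth factor beta binding protein, varied most of the bright members over the arrays. Adamtsl2 levels, in the same order of pools, were 1.67, 2.13, 2.39, 2.12 and 2.86 in infrarenal and 1.71, 1.34, 2.16, 2.41 and 2.62 in suprarenal segments. Infrarenal pool 12 was the highest and suprarenal pool 6 the lowest Adamtsl2 array, and the difference was 0.19 ± 0.15.

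Adamtsl1 is the remaining ADAMTS-like gene. Suprarenal Adamtsl1 read 1.88, 1.64, 2.15, 2.18 and 2.49 in pools 1, 6, 8, 11 and 12, beside infrarenal values of 2.18, 2.50, 2.30, 2.63 and 1.96. The infrarenal array was above its partner in pools 1, 6, 8 and 11 and below it in pool 12. The difference of 0.25 ± 0.18 became 0.44 without pool 12 (unadjusted p = 0.0107 by limma, adjusted p = 0.391) and 0.037 with the brown adipocyte score in the fit (adjusted p = 0.959). Its dimmer probes gave 0.041 ± 0.13 and 0.0083 ± 0.14.

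Several genes were read by more than one probe, which tests the choice of the brightest. Of the 11 members with several probes, 8 had probes whose differences were of opposite sign, where 44.7% of the 2975 genes with several probes did. These were Adam22, Adam23, Adam28, Adam33, Adamts8, Adamts9, Adamts14 and Adamts20. In 8 members, Adam10, Adam22, Adam23, Adamts8, Adamts9, Adamts10, Adamts14 and Adamtsl1, the probes were more than 2 log2 units apart in brightness. The pairs with opposite signs and both probes above the limit included Adamts8, Adam33 and Adamts20, whose positive values above thus rest on the choice of probe. Of 53 member probes 2 had an unadjusted p under 0.05, and 0 passed after adjustment.

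**Figure D4:**
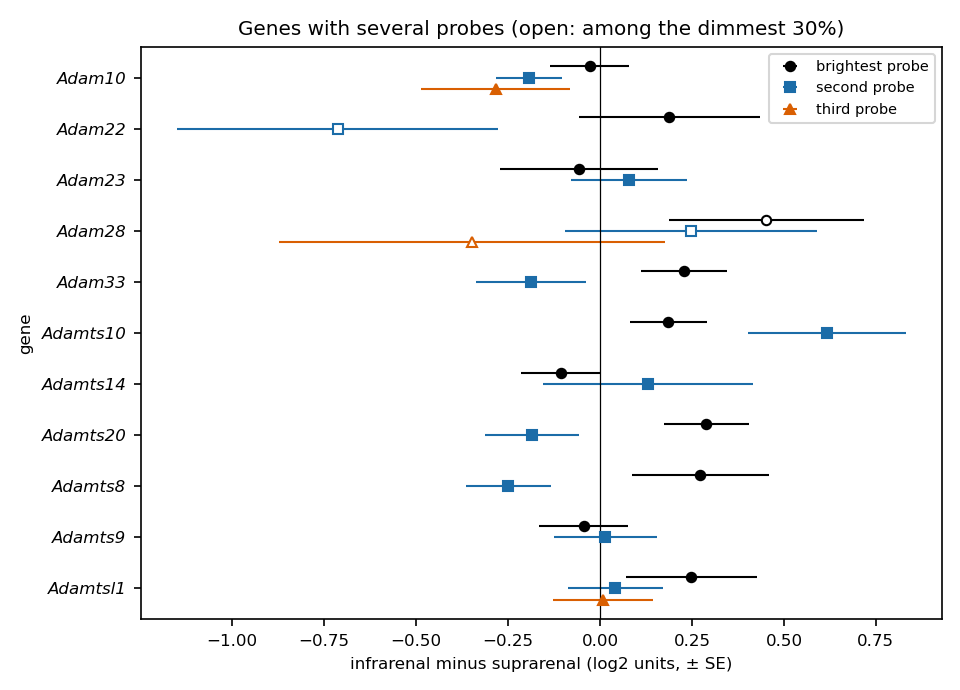
Infrarenal minus suprarenal difference in log2 units ± SE for every probe of the 11 genes with several probes; circles are the brightest probe, squares the second and triangles the dimmest of 3, and open symbols are among the dimmest 30%. The probes of Adamts8, Adam33 and Adamts20 lie on opposite sides of 0, and those of Adam10 and Adamts10 on the same side.

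The genes that act on these proteases, or are cut by them, did not pass the test either: with limma, 0 of 58 measured of 63 listed had an adjusted p under 0.05, and at an unadjusted p under 0.05 there was 1 higher and 1 lower, against 3.05% and 4.51% of all probes. Among 7 inhibitors 3 were positive and 4 negative, with a median of -0.045; Timp3, which inhibits ADAM17 and the aggrecanases and is held in the matrix, gave 0.081 ± 0.093, and Timp4 0.19 ± 0.19. Of 8 proprotein convertases, the enzymes that remove the inhibitory prodomain, 6 were measured and all 6 were negative with a median of -0.15. Among them Pcsk6 gave -0.32 ± 0.13 (limma adjusted p = 0.639) and Pcsk1 -0.28 ± 0.16. The 9 carriers that bring ADAM10 and ADAM17 to the surface had 8 negative values and a median of -0.10, with Tspan17 at -0.12 ± 0.090 and the dim Rhbdf1 at -0.70 ± 0.50.

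Of 13 measured matrix substrates and partners 5 were positive and 8 negative, with a median of -0.0070; Comp, the substrate of ADAMTS7, gave 0.15 ± 0.11 and Thbs2 -0.14 ± 0.11. Of 23 measured membrane proteins known to be shed 7 were positive and 16 negative, with a median of -0.076. Dll1, a Notch ligand cut by ADAM10, gave 0.47 ± 0.17, and Cdh5, the cadherin of endothelium, gave -0.34 ± 0.15 (limma adjusted p = 0.639 for both). For comparison, the median over all named genes was -0.049, and 60.4% of them were negative.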

How the data were processed

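Intensities on a linear scale, deposited by the authors as normalized array values, were used. How they were scanned and normalized is not stated in the sources used here. They were floored at 0.0278 (percentile 1 of positive values) and taken to log2. Of 36227 probes, 36061 with at least 3 values in each region were fitted with limma 3.58.1 in R 4.3.3 (mean-variance trend, Benjamini-Hochberg over all probes), with the pool as a block. The pairing comes from the series' design text, by which each pool gave both segments, and from the pool number in the array titles. Across probes, the r between the deviations of the infrarenal and suprarenal array was 0.135 for pool 1, 0.029 for pool 6, -0.019 for pool 8, -0.197 for pool 11 and -0.20 for pool 12, so that the values themselves show little pairing. The fit was tested on simulated data. Of the probes, 21615 carry 1 gene symbol, 681 several and 13931 none. The number of arrays limits the precision.

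Members and lists were chosen with earlier results of these data known. Values on every array are given for Adamts1, Adam17, the 2 brightest members of each role and the 3 of smallest p in each direction; Adamts9, Adam10, Adamtsl1 and Adamtsl2 were added after their values were seen. Other bright members are named with their level or difference, as are the 2 nearest the limit on either side, those whose probes disagree, the 3 of largest SD, and the 2 of smallest p in each list of related genes. Alternatives changed the normalization, floor, filter, block, weights, covariates, probe choice and arrays. The pool comparisons and their alternatives were added after the data were seen.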

Additional observations from a re-analysis of the deposited data

Results flagged for a closer look

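Among 58 sets of 5 arrays (29 bright members in each region), 2 held an array far from the other 4 of its region, and about 2.9 are given by chance, which flags about 1 set in 20. Adamts10 read 2.28 on infrarenal array 12, against 2.02 to 2.09 on the other infrarenal arrays. Adamts14 read 4.002 on infrarenal array 6, against 3.73 to 3.78 on the others.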

How the results depend on the processing

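In every one of the 17 alternatives 0 members passed the adjusted threshold, also without the replicate block. Because each pool gave both regions, leaving out the block cannot change a member's difference, only its SE and p. The 14 of 39 members negative and the median of 0.065 were therefore bound to stay the same. Members above the limit numbered 28 with probes averaged and 22 at the median probe. The sign was kept under all of the alternatives by 15 of the 29 bright members, and 14 with differences of at most 0.19 in size changed it under at least 1. Quantile normalization moved the median of all probes from -0.023 to 0.0082 and left 8 of the 29 negative, the lowest count, against 15 without pool 6, the highest. With the brown adipocyte score in the fit Adamts14 gave -0.22 (unadjusted p = 0.0272 by limma, adjusted p = 0.764), and with the probes averaged Adam33 gave 0.020. Dimness limits the 10 dim members most, whose median 95% half-width was 1.05 log2 units, against 0.28 in the bright ones.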
